A study of Mus musculus with 27 samples.

Results

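The junctions of very short introns were taken from the splice table of whole fetal brains of 3 mouse strains. A splice junction is the pair of genome positions between which a sequenced RNA read skips, and the skipped segment is normally an intron. Every distinct junction was counted once, and those that skip at most 100 bases were kept, which gave 2454 of 55669 junctions, or 4.41%. The poly-A RNA of 27 libraries was sequenced, 3 for each of 9 groups, and the labels describe all fetuses as female. AKR/J is an inbred strain, and its groups were taken at gestational days (d) 12, 15 and 17. C57BL/6J, the longer-lived inbred strain of the study, was sampled at the same 3 days. The Cav1-null groups (B6.Cg-Cav1tm1Mls/J) carry a whole-body deletion of Cav1 in a background congenic with C57BL/6J and were also sampled at d12, d15 and d17. A whole-brain sample mixes all cell types of the brain, so that fewer cells of a type and less RNA per cell cannot be told apart.

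Introns are removed from pre-mRNA by the spliceosome, which recognises a donor site at the 5' end of the intron, a branch point, and a pyrimidine-rich stretch before the acceptor site at the 3' end. A short intron leaves little room for these elements, and the spliceosome is thought to pair splice sites across such an intron rather than across the neighbouring exon. Runs of G near the donor are known to aid the splicing of short mammalian introns. Some short introns fold into hairpins after splicing and enter the microRNA pathway without Drosha, and these are called mirtrons.

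The sequences below, read from GRCm39, are those of the shortest introns that were spliced in every library at a mean of at least 10 reads, with the donor GT and the acceptor AG in capitals. Adck5 (chr15:76478811-76478873, plus strand) has an intron of 63 bases, Inpp5e (chr2:26289361-26289424, minus strand) of 64, and Pop5 (chr5:115376129-115376193, plus strand) of 65. All 3 interrupt coding sequence.
Adck5: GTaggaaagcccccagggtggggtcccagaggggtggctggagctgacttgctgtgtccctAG
Inpp5e: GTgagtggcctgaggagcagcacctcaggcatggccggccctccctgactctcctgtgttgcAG
Pop5: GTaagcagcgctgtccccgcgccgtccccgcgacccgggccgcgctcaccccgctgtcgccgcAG

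The next introns are shown because they hold known microRNAs, which are set in capitals. The intron of Abcf1 that holds miR-877 lies at chr17:36271622-36271706 on the minus strand, that of Dbn1 (drebrin, an actin-binding protein of dendritic spines) with miR-6944 at chr13:55625494-55625589 on the minus strand, and that of Rabac1 with miR-7046 at chr7:24669435-24669511 on the minus strand.
miR-877 intron of Abcf1: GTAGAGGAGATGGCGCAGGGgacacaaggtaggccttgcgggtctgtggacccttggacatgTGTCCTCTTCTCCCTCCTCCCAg
miR-6944 intron of Dbn1: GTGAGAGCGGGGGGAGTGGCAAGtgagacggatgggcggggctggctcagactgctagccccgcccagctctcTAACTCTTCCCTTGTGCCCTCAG
miR-7046 intron of Rabac1: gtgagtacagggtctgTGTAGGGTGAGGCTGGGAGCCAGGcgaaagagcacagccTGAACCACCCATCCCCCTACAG
In the mature RNAs of the 2 introns whose microRNA starts at the donor, the seed (bases 2 to 8, in capitals) falls on the donor site itself, and the sequences are those of RefSeq.
mmu-miR-877-5p: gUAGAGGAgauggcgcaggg
mmu-miR-6944-5p: gUGAGAGCggggggaguggcaag

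The introns to which the strain and day comparisons turn are also shown. In Drap1 a donor is joined to either of 2 acceptors 21 bases apart, so that the 97-base intron lies inside a 118-base intron (chr19:5473682-5473799, minus strand), and the donor GT and both acceptor AG are in capitals. The others are Rccd1 (88 bases, chr7:79969962-79970049, minus strand), Nop56 (83 bases, chr2:130118544-130118626, plus strand) and Ppdpf (72 bases, chr2:180829530-180829601, plus strand), with donor and acceptor in capitals.
Drap1 nested acceptors: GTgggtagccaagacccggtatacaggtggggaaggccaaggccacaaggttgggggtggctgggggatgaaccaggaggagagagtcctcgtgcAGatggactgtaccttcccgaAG
Rccd1: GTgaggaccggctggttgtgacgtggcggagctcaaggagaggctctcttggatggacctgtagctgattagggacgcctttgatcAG
Nop56: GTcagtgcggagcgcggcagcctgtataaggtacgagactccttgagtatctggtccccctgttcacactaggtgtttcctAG
Ppdpf: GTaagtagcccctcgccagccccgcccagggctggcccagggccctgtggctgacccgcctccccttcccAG

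The reads on genes numbered 26363697 to 39759702 per library, and the reads on all junctions 2792888 to 4697191. Cav1 had 0 to 16 reads in the Cav1-null libraries and 182 to 1288 in the others. Xist, the RNA of the inactive X chromosome, had 103 reads in AKR/J d15 replicate 3 and 121 in Cav1-null d12 replicate 2. The other 25 libraries had at least 53005. The Y-linked gene Ddx3y had 3439 reads in Cav1-null d12 replicate 2, so both genes go against the label of that library as female. In AKR/J d15 replicate 3 Ddx3y had 0 reads, so only its low Xist goes against the label, and its sex is not settled. AKR/J d12 replicate 1 had 430 Ddx3y reads beside 67235 Xist reads, and the other libraries had 0 to 4 Ddx3y reads. The summed expression of 14 erythroid markers was 35714.7 to 136283.7 CPM (counts scaled to the library total) in AKR/J d12 and 663.4 to 19356.2 in the other groups, and that of 10 neuron markers was 1683.8 to 2342.2 in AKR/J d12 and 4145.1 to 8379.7 elsewhere. Trophoblast and decidua markers were 94.16 to 699.7 CPM in AKR/J d12 and at most 333.3 elsewhere. Yolk sac endoderm markers were 56.36 to 1331.9 there and at most 716.4 elsewhere. Neural progenitor markers were 2443.6 to 2991.3 there and at most 2477.7 elsewhere.

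The short introns had a narrow range of lengths. The median was 84 bases, the most frequent length was 85 bases with 109 junctions, and 93.8% of the members were 70 to 100 bases long. Below 70 bases the number fell steeply, with 80 junctions of 50 to 69 bases, 71 of 21 to 49 bases and 2 of at most 20 bases. Of the 73 junctions under 50 bases, 1 is an intron of the GENCODE annotation, with 27 bases, whereas 2309 of all 2454 members (94.1%) are annotated introns.

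**Figure D1:**
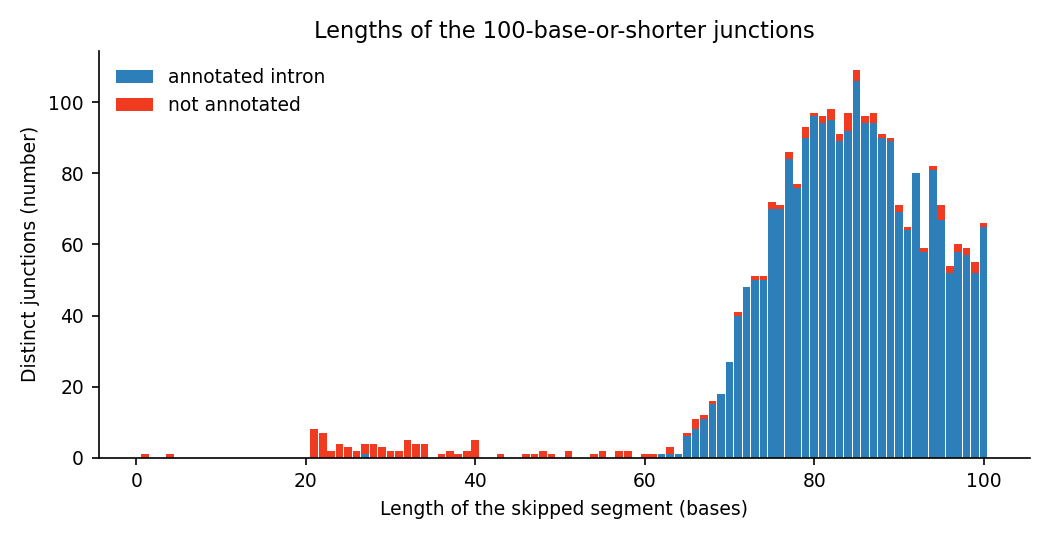
Number of distinct junctions (y axis) at each length of the skipped segment in bases (x axis), stacked by whether GENCODE annotates the intron. Annotated introns fill the range from about 65 to 100 bases with a peak at 85, and the junctions under 50 bases are not annotated except for 1.

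Short introns were placed and composed differently from longer ones. Of the annotated members, 94.6% lie between coding exons, compared with 84.3% of introns of 101 to 1000 bases, 84.6% of 1001 to 10000 bases and 73.0% over 10000 bases. Only 7.58% were the first intron of a transcript, against 14.8%, 16.4% and 35.1% in the 3 longer classes. The median GC content was 56.99% in the short introns and 51.1%, 44.0% and 42.4% in the longer classes.

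The sequence near the donor was richer in G runs. Among 2159 annotated GT-AG members of at least 72 bases, 66.1% had the letters GGG in bases 7 to 36 of the intron on the transcribed strand, compared with 50.2%, 39.6% and 42.4% in the 3 longer classes. The median GC content of the first 36 bases was also higher, at 58.3% against 55.6%, 50% and 50%. GGG was counted in this window alone, so an excess particular to the donor was not tested. The donor GTGAGT opened 16.9% of them and the donor GTAAGT 7.09%, whereas in introns over 10000 bases the shares were 16.9% and 16.8%. The median pyrimidine content of the stretch before the acceptor was 76.5% in every class. GT-AG ends were found in 2338 members and GC-AG ends in 23. Letters in a window of this kind describe the sequence and do not show which factor binds there.

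**Figure D2:**
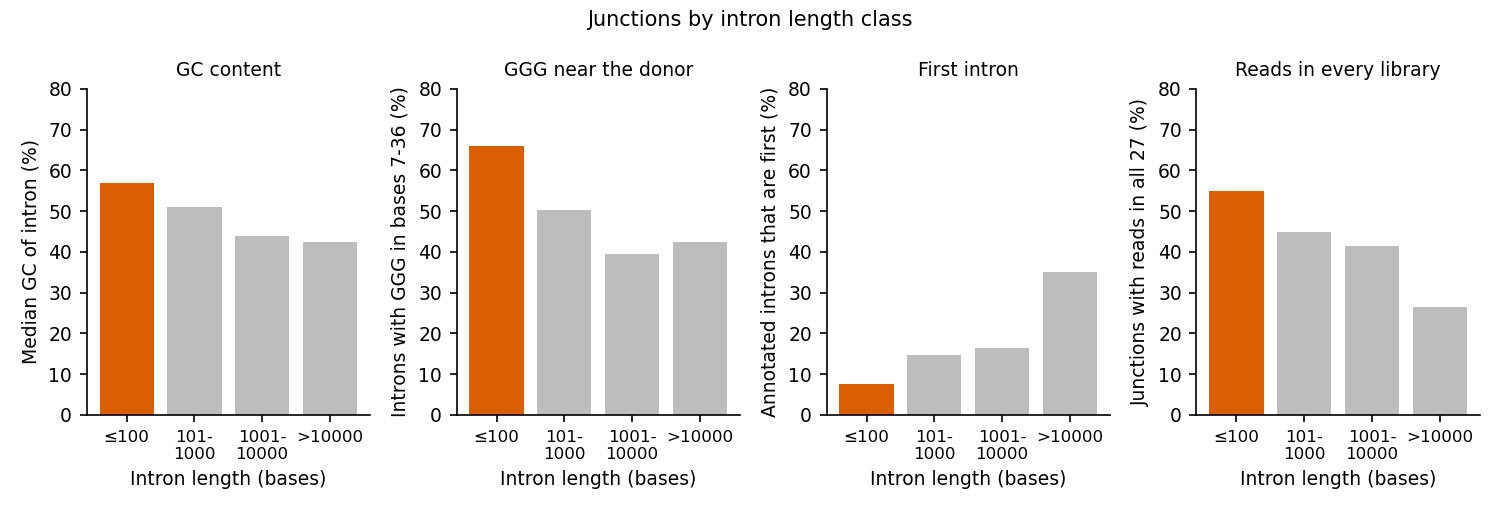
Bars show, for the 4 classes of intron length in bases (x axis), the median GC content of the intron, the share of introns with GGG in bases 7 to 36, the share that are first introns, and the share of junctions with reads in all 27 libraries, each in % (y axis). The class of at most 100 bases (orange) is highest in GC (56.99%), in GGG (66.1%) and in junctions with reads everywhere (54.9%), and lowest in first introns (7.58%).

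Junctions of short introns were detected often and carried more reads per junction than longer introns. Reads in all 27 libraries were found for 1346 members (54.9%), compared with 44.8%, 41.5% and 26.6% in the longer classes. The median of the mean reads per library was 46.1 in the members and 30.8, 25.5 and 14.7 in the others. The members held 7.33% of all junction reads, between 6.36% and 8.70% in single libraries. Each library had reads on 84.5% to 90.3% of the members and on 78.6% to 86.6% of the other junctions, and the lowest share of members was in AKR/J d12, at 84.5% to 88.4%.

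Within the same genes the difference was smaller. This comparison took annotated introns between coding exons, neither first nor last, that GENCODE gives to the listed gene. They had reads in all 27 libraries and a mean of at least 10. In 571 genes with both a short and a longer junction of this kind, the short ones had a median of 0.066 more on the log2 scale. This is 1.05-fold of the longer ones of the same gene, and 327 of the genes (57.3%) had more on the short ones. The middle 50% of these genes ran from -0.17 to 0.35. The same comparison of junctions of 101 to 1000 bases with longer ones in 1412 genes gave a median of 0.012. The within-gene median was above 0 in all 27 libraries, at 0.037 to 0.125.

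A read count of 0 needs care in this table, because the authors removed junctions with multimapped reads from their files. Where the other libraries of a group had at least 30 reads on a member, 2.51% of the values were 0, compared with 3.81%, 4.22% and 7.13% in the longer classes. Among junctions with a mean over 1000 reads the order was the opposite, with 20.4% for the 25 members and 14.95%, 8.50% and 4% in the longer classes, the last of which held 6 such junctions, and 12.7% over all. The members with the most reads were in housekeeping genes and showed this pattern of all or nothing.

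Eef1a1 encodes a translation elongation factor and holds the 3 members with the highest means. Its 99-base junction had 12432 to 26570 reads in 14 libraries and 0 in the other 13. Set against the reads of the gene, it took 106.7 to 114.2 reads per 1000 gene reads wherever it was not 0, so the libraries with reads were nearly alike and the zeros stood apart from them. The 89-base junction of Eef1a1 was 0 in 17 libraries, and its 90-base junction, which has GC-AG ends, was 0 in 23 and took 134.9 to 145.2 reads per 1000 in the others.

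The other abundant members varied little where they had reads. The 95-base intron of Fth1, the ferritin heavy chain, took 177.0 to 215.7 reads per 1000 gene reads in 24 libraries and was 0 in 3. The 87-base intron of the translation factor gene Eif4g2 took 33.9 to 42.2 per 1000 in 26 libraries. The 80-base intron of Hnrnpa2b1, an RNA-binding protein of the spliceosome, took 54.1 to 81.0 per 1000 in 20 libraries. The lowest values of Hnrnpa2b1 and Eif4g2 that were not 0 were in AKR/J d12.

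The 99-base intron of the chaperone gene Hsp90ab1 was 0 in 5 libraries and took 52.9 to 69.6 per 1000 in the others. The 94-base junction listed under Atpif1 and Gm12999 is an intron of Atpif1, the inhibitor of the mitochondrial ATP synthase, and took 759.4 to 962.5 per 1000 Atpif1 reads in 23 libraries.

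Of 80 members of 50 to 69 bases, 35 had reads in all 27 libraries, and the shortest of those with a mean of at least 10 reads, chosen for having reads everywhere, are described here. Adck5 (63 bases) had 11 to 45 junction reads and 20.5 to 53.3 per 1000 gene reads. Inpp5e (64 bases), a phosphatase of primary cilia, had 3 to 37 reads and 5.09 to 29.7 per 1000. The 65-base introns of Ppp2r5b, Rnf126 and Pop5 had 17 to 219, 64 to 245 and 38 to 108 reads. The introns of Rnf126 and of Pop5, a subunit of RNase P, have a GC content of 80%.

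Some genes were listed with many short introns. Of 1675 gene listings with a member, 458 had at least 2 and 32 at least 5. Cpsf1, the largest subunit of the factor that recognises the polyadenylation signal, had 15 short junctions among its 18 listed junctions, and they were 66 to 96 bases long. Of these, 14 had reads in every library and 1 was 0 in 1 library, and their means ran from 56.8 to 101.6 reads and from 19.6 to 35.4 per 1000 gene reads. The lowest was the 96-base intron nearest the 5' end, at 19.6 ± 4.63 per 1000 gene reads (SD, n = 27), and the highest a 75-base intron, at 35.4 ± 4.43.

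Jmjd8 (8 of 9 listed junctions), Rhot2 (8 of 13), Stab1 (8 of 17) and Tubgcp6 (8 of 12) followed. GENCODE gives 1 of those listed under Jmjd8 (91 bases) to Stub1 and 1 of those under Tubgcp6 (87 bases) to Selenoo, and 4 of those under Rhot2 belong also to the gene model Gm20683. Rhot2 encodes a GTPase of the outer mitochondrial membrane, Stab1 a scavenger receptor of endothelium and macrophages, and Tubgcp6 a component of the gamma-tubulin complex. In Tubgcp6, 2 members of 84 and 87 bases share a splice site, and the 84-base intron took 57.1% to 97.7% of the reads of the pair in AKR/J, 77.4% to 94.1% in C57BL/6J and 77.3% to 97.5% in the 7 Cav1-null libraries with reads on both.

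Of 1738 mature mouse microRNAs in RefSeq, 111 were found as an exact match inside 59 members, which lie in 55 host genes. These introns had a median of 86 bases and a GC content of 60%, and their mean reads ran from 1.96 to 1032 per library, with reads in all libraries for 31. A mature microRNA ended within 2 bases of the acceptor end in 43 introns, started at the first or second base in 19, and did both in 11, as in the introns of Abcf1 and Dbn1 printed above. The splice table lists 48 members under a microRNA gene alone, so their reads were set against the host gene.

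The intron of Rabac1 with miR-7046 had 167 to 445 reads, and its group means were 130.1 to 152.4 reads per 1000 host reads, with SDs of 1.61 to 16.0. That of Dbn1 with miR-6944 had 0 reads in 4 libraries, and in the 6 groups without a 0 its means were 60.3 to 63.6 per 1000 host reads. Against their hosts, 30 to 42 of these introns could be tested in each comparison, with the quasi-likelihood test of edgeR and Benjamini-Hochberg adjustment over all junctions. None was called between days or in the interaction of strain and day, where 1 to 5 had an unadjusted p under 0.05. Against the GENCODE gene, 3.53% and 0.76% of all junctions were called in the early and late phase of AKR/J, 0.831% and 0.673% in those of C57BL/6J, 1.15% and 0.187% in those of Cav1-null, 1.62% in the interaction, and 6.23% and 3.16% in the strain comparisons of AKR/J and Cav1-null. The 92-base intron of Ripor1 with miR-1966 was called in both strain comparisons, lower in AKR/J than in C57BL/6J by -0.92 on the log2 scale (adjusted p = 0.0017) and lower in Cav1-null by -0.50 (adjusted p = 0.036). It is named after its values were seen.

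The comparisons ask whether the junction reads of short introns, relative to the reads of their gene, changed between days in a strain and differed between strains. This ratio is not a direct measure of splicing. A junction was tested where it was listed under 1 gene, had reads in every library compared and had a mean of at least 10 reads. It was called at an adjusted p under 0.05 over all tested junctions. In the early phase, from d12 to d15, 24 of 1438 tested members (1.67%) were called in AKR/J, 6 higher and 18 lower on d15. Over all tested junctions of that comparison, 2.09% were called, with 0.744% called higher and 1.35% called lower. Without the constant that equalises the libraries, the AKR/J calls were 8 higher and 5 lower, because that setting moves the median of all junctions from -0.04 to 0.13. Of the 24, 23 had no overlap between the 2 days, as had 98% of all called junctions.

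In C57BL/6J no member of 1559 was called in the early phase, the background being 0.098%, although 133 had an unadjusted p under 0.05, and DESeq2 called 6 and limma 0. In Cav1-null mice 6 of 1513 were called, 2 higher and 4 lower, against a background of 0.595%. In the late phase, from d15 to d17, 2 of 1528 were called in AKR/J, where 0.31% of all junctions were called, 4 of 1535 in C57BL/6J, where the share was 0.352%, and 2 of 1491 in Cav1-null mice, where it was 0.0786%. The shares of members called were thus 0.397% for Cav1-null from d12 to d15, and from d15 to d17 they were 0.131% for AKR/J, 0.261% for C57BL/6J and 0.134% for Cav1-null.

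The AKR/J early-phase count depended on single libraries. It was 7 without AKR/J d12 replicate 1, 69 without d12 replicate 2 and 10 without d12 replicate 3, and it was 3, 6 and 2 without d15 replicates 1, 2 and 3. The AKR/J library low in Xist is d15 replicate 3, without which Uckl1 and Uqcrq had adjusted p of 0.057 and 0.055 and Nop56, Hif1a, Qars and Gtf3c6 of 0.144, 0.153, 0.158 and 0.125. Their log2 fold changes without that library were -1.51, -1.25, 0.61, 1.115, -0.70 and -0.63, in the same order. Without the Cav1-null library low in Xist, d12 replicate 2, the Cav1-null early-phase count was 1. AKR/J d12 is also the group with the raised erythroid and lowered neuron markers given above, whose part in the AKR/J changes was not tested.

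The early-phase members with the largest changes in AKR/J, among those of a gene that GENCODE also assigns the intron, were in Uckl1, Snhg14 and Uqcrq. The 71-base intron of Uckl1, a uridine-cytidine kinase-like gene, took 92.9, 71.4 and 98.2 junction reads per 1000 gene reads on d12 and 33.3, 33.5 and 36.1 on d15. The log2 fold change was -1.50 (SE 0.23, adjusted p = 0.0096). All 3 libraries of AKR/J d12 lay above every other AKR/J library, and in C57BL/6J and Cav1-null mice Uckl1 ran from 31.2 to 62.4. The call was lost without AKR/J d15 replicate 1 or 3.

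The 85-base intron in the 5' untranslated region of Uqcrq, a subunit of the mitochondrial complex III, took 32.0, 25.7 and 26.7 per 1000 gene reads on d12 and 11.0, 15.4 and 15.8 on d15 in AKR/J. It fell by 1.18 on the log2 scale (log2 fold change -1.18, SE 0.19, adjusted p = 0.011), and the groups did not overlap. The call of Uqcrq was lost without AKR/J d15 replicate 1 or 3, where the adjusted p reached at most 0.065.

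Snhg14 is a long noncoding RNA that hosts small nucleolar RNAs of the imprinted region of Ube3a. Its 97-base intron took 31.1, 23.6 and 26.7 per 1000 gene reads in AKR/J d12 and 13.85, 12.6 and 13.97 in d15, a log2 fold change of -1.18 (SE 0.15, adjusted p = 0.0055), and the call held without each of the 6 libraries. It was lost with zeros kept in the fit (adjusted p = 0.072) and against the other junctions of Snhg14 (-1.21, adjusted p = 0.097), as were all 24 AKR/J calls with zeros kept and the 23 that could be tested against other junctions. In Cav1-null mice it took 7.91, 11.7 and 7.74 on d12 and 3.46, 3.85 and 3.93 on d15, a change of -1.21 (SE 0.21, adjusted p = 0.020), which was lost without any of 4 libraries, Cav1-null d12 replicate 2 and the 3 of d15, and in both of these settings (adjusted p = 0.25 and 0.17). In C57BL/6J the 3 libraries of d12 were 14.3, 6.57 and 26.3 and those of d15 4.30, 4.17 and 3.43, and the change of -2.01 (SE 0.43) was not called (adjusted p = 0.14). All d12 libraries of each strain were thus above the d15 libraries of that strain.

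Nop56 and Hif1a were among the 6 members that rose in AKR/J in the early phase. Nop56 encodes a core protein of the box C/D small nucleolar ribonucleoproteins, and its 83-base intron took 26.1, 28.2 and 28.6 per 1000 gene reads on d12 and 47.2, 45.3 and 59.6 on d15. The log2 fold change was 0.71 (SE 0.13, adjusted p = 0.025). The 82-base intron of Hif1a, the oxygen-regulated transcription factor subunit, took 11.0, 23.8 and 21.9 on d12 and 43.6, 45.3 and 40.8 on d15, a change of 1.05 (SE 0.24, adjusted p = 0.049). In both genes the AKR/J d12 libraries were the lowest of all 27, and each call was lost without any of 5 of the 6 libraries, the exception being AKR/J d12 replicate 2. With TMM scaling of libraries in place of the gene reads, a setting that also counts changes of the gene itself, the change of Nop56 turned to -0.17 (adjusted p = 0.66).

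The 93-base intron of Qars, the glutaminyl-tRNA synthetase, fell from 74.4, 69.5 and 67.5 to 47.3, 48.2 and 49.01 per 1000 gene reads in AKR/J (log2 fold change -0.72, adjusted p = 0.031). The 92-base intron of Gtf3c6, a subunit of the RNA polymerase III factor TFIIIC, fell from 198.0, 152.3 and 185.7 to 139.0, 114.3 and 127.8 (log2 fold change -0.66, adjusted p = 0.024). In both, the days did not overlap, and each call was lost without any of 5 of the 6 libraries. In Cav1-null mice, the 85-base intron of Eif4a2, an RNA helicase of translation initiation, rose from 65.1, 63.9 and 64.75 to 77.2, 72.2 and 73.1 (log2 fold change 0.26, adjusted p = 0.023), a small change with a narrow spread that was lost without any of 4 libraries, d12 replicates 1 and 2 and d15 replicates 1 and 2. It was lost also with zeros kept (0.26, adjusted p = 0.74) and against the other junctions of Eif4a2 (0.03, adjusted p = 0.99). None of the 6 Cav1-null calls was kept in either of these settings, and the 4 members called there with zeros kept were others.

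The interaction of strain and day asks whether the change between days differs between strains. It was called for 10 of 1189 members (0.841%), against 0.876% of all tested junctions. The 10 were listed under Nop56, Hif1a, Qars, Uckl1, 4932443L11Rik, Xrcc1, Pdhb, Ergic3, Gtf3c6 and Tinf2, which were named after their values were seen. GENCODE gives the intron listed under 4932443L11Rik to Evi5l and that under Tinf2 to Gmpr2, and against those genes neither was called (adjusted p = 0.558 and 0.485). The counts without each of the 2 libraries low in Xist were also 10. Without AKR/J d12 replicate 1, 2 or 3 they were 3, 29 and 4, and without C57BL/6J d17 replicate 1 the count was 16. Nop56 and Hif1a kept their call without each of the 27 libraries, with adjusted p of at most 0.049 and 0.031, but lost it with zeros kept in the fit (adjusted p = 0.149 and 0.182) and against the other junctions of the gene (adjusted p = 0.831 and 0.508). With zeros kept, 1 of the 10 calls was kept, Xrcc1 (adjusted p = 0.044), and against the other junctions none of the 9 that could be tested.

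**Figure D3:**
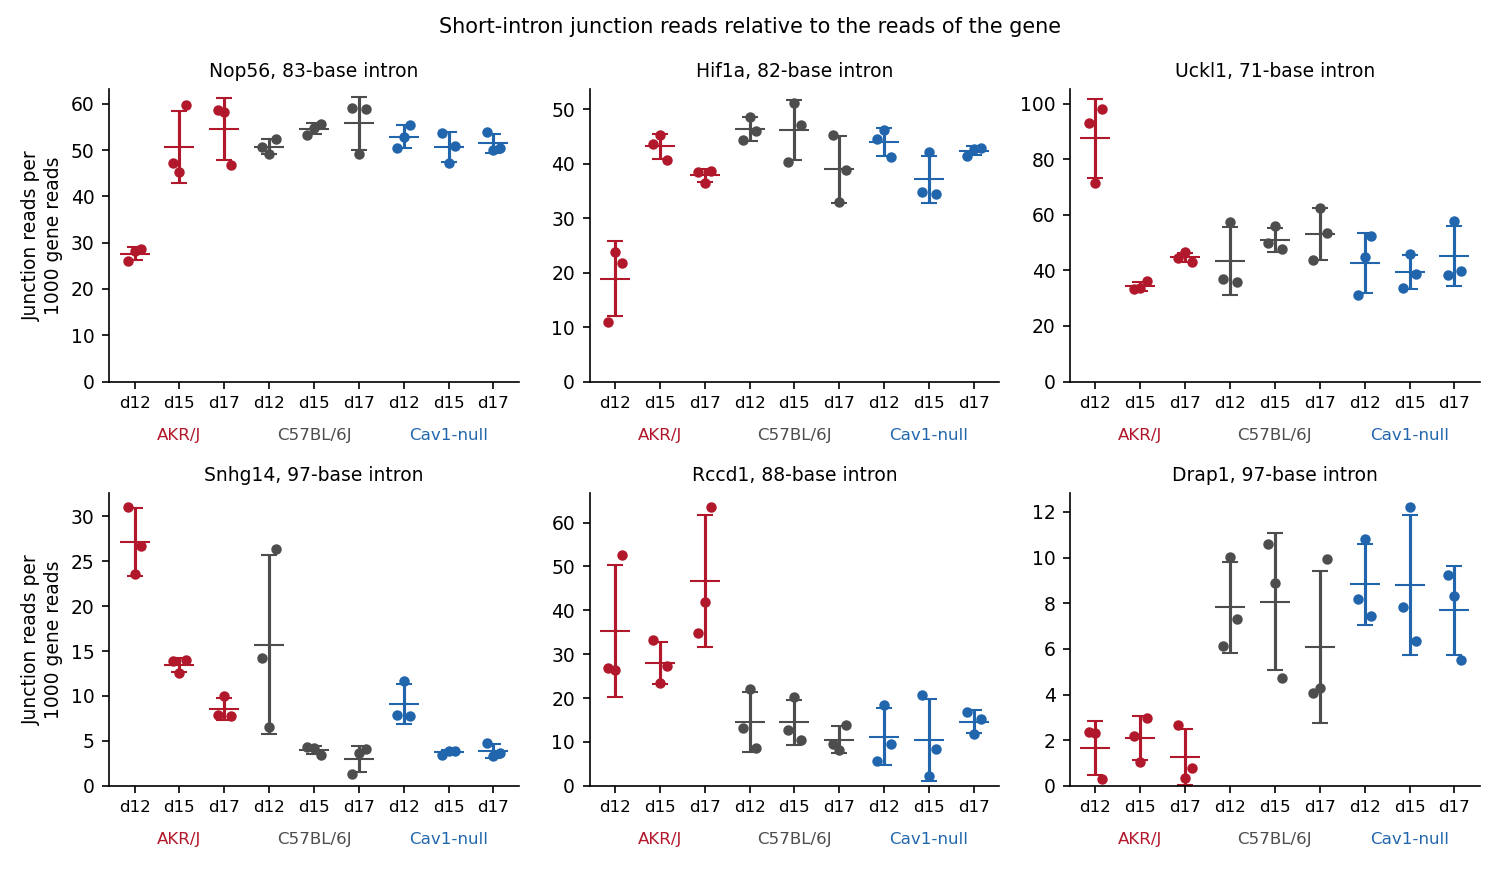
Junction reads per 1000 gene reads (y axis) in the 3 libraries of each strain and day (x axis) for 6 short introns, with points for libraries and bars for the mean ± SD. In Nop56 and Hif1a the AKR/J d12 libraries are the lowest and in Uckl1 the highest, and in Rccd1 and Drap1 the AKR/J libraries stand apart from C57BL/6J on all days.

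The other members of the interaction differed in the group that stood out. Xrcc1, a scaffold protein of DNA single-strand break repair, took 21.1 to 28.9 per 1000 gene reads in AKR/J d12 and 36.3 to 48.4 in AKR/J d15, whereas in Cav1-null mice it took 35.5 to 47.2 on d12 and 21.2 to 22.4 on d15. Pdhb, a subunit of pyruvate dehydrogenase, took 62.2 to 69.1 in AKR/J d15 and 48.1 to 51.2 in d17, and in C57BL/6J 67.2 to 77.4 and 64.1 to 74.0. For Ergic3 only d12 values are given, 114.8 to 166.8 in AKR/J and 107.0 to 111.3 in C57BL/6J, and they do not show its change between days. The change of Xrcc1 from d12 to d15 was in opposite directions in AKR/J and Cav1-null mice. The calls of Xrcc1, Pdhb and Ergic3 were each lost without some single libraries, counted further below.

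Many calls came from junctions that the splice table lists under another gene than the one GENCODE gives the intron. In these, the reads of the listed gene are not the reads of the gene that is spliced. In the 2 strain comparisons, 26.8% and 29.8% of the tested members with such a listing were called, against 5.32% and 2.06% of those listed under the same gene. All calls of the late phase, 2, 4 and 2, were of this kind, as were 6 of the 24 in the AKR/J early phase and 3 of the 6 in the Cav1-null early phase. None of the late-phase calls was kept with zeros in the fit.

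In the AKR/J late phase the called junctions were a 98-base intron of Gnas listed under Gm20721 and an 86-base intron of Hes5 listed under Gm20421. Per 1000 Gnas reads, the Gnas junction took 646.6, 665.0 and 692.4 on d15 and 685.4, 684.4 and 686.7 on d17, a log2 fold change of 0.09 against Gnas and of -1.23 against Gm20721. For Hes5, a target of Notch in neural progenitors, the change was 0.23 against Hes5 and -2.08 against Gm20421. In C57BL/6J the late-phase calls were 2 introns of Doc2a (79 and 85 bases) listed under Ino80e, 1 of Evi5l (85 bases) listed under 4932443L11Rik and 1 of Pi4ka (80 bases) listed under Tmem191c. Against the GENCODE gene their changes were 0.58, 0.99, 0.03 and 0.18, none of them called.

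The Cav1-null late-phase calls were the 99-base and 100-base introns of Gtpbp6 listed under Plcxd1, with changes of -1.66 and -1.49 against Plcxd1 and -0.09 and 0.08 against Gtpbp6. For AKR/J from d12 to d15, the 78-base intron of the kinase gene Mast1 rose by 1.54 against the listed gene Dnase2a and had a change of -0.20 against Mast1. The 91-base intron of Lrrc41 rose by 1.66 against Rad54l and had a change of 0.21 against Lrrc41. The 84-base intron of Rangrf, listed under Slc25a35, had a change of -3.50, with up to 12869.6 junction reads per 1000 reads of the listed gene.

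A further junction listed this way moved also against its own gene, though not past the threshold. The 79-base intron of B3gat2, listed under Smap1, had 2, 1 and 2 reads in AKR/J d12 and 43, 24 and 38 in d15. Its log2 fold change was 3.21 against Smap1 (adjusted p = 0.013) and 2.14 against B3gat2 (adjusted p = 0.056). In Cav1-null mice the changes of this junction were 1.61 and 0.75. The 95-base intron of U2af1l4, a paralogue of the splicing factor U2af1, fell in Cav1-null mice (log2 fold change -1.24, adjusted p = 0.013), but the intron belongs also to an overlapping gene model, and its junction took at least 7181.8 reads per 1000 reads of the listed gene. Against the other junctions listed under U2af1l4 the change turned to 0.06 (adjusted p = 0.97), and with zeros kept the call was lost (adjusted p = 0.39).

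The strain comparisons used all 3 days and shared the 9 C57BL/6J libraries. Of 1273 tested members, 78 (6.13%) were called between AKR/J and C57BL/6J, 56 higher and 22 lower in AKR/J, where 6.92% of all junctions were called, 3.81% called higher and 3.11% called lower. Of 1344 tested members, 41 (3.05%) were called between Cav1-null and C57BL/6J, 15 higher and 26 lower in Cav1-null, against 4.12% of all junctions, 1.34% called higher and 2.78% called lower. The split of directions rests on the scaling and on the gene taken as denominator. Against the GENCODE gene the calls were 60 higher and 17 lower in AKR/J and 24 higher and 20 lower in Cav1-null, and with junctions of at most as many reads as their gene 70 and 20 in AKR/J and 30 and 22 in Cav1-null. Without the constant that equalises the libraries the calls were 7 higher and 80 lower in AKR/J and 1 higher and 78 lower in Cav1-null, a setting that moved the median of all junctions from 0.03 to -0.14 and from 0.03 to -0.11.

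No overlap between the 18 libraries was found for 2 of the AKR/J calls, Drap1 and Rccd1, where it held for 2.6% of all called junctions, and for 1 of the Cav1-null calls, where it held for 2.69%. The count of AKR/J calls was 47 without C57BL/6J d12 replicate 2 and 119 without C57BL/6J d17 replicate 2. That of Cav1-null calls was 84 without C57BL/6J d17 replicate 2, 27 without C57BL/6J d17 replicate 1 and 27 without Cav1-null d15 replicate 2. Without the library low in Xist, the counts were 71 and 41. With zeros kept in the fit, 17 of the 78 and 2 of the 41 calls were kept, and against the other junctions of the gene 4 of the 67 and none of the 35 that could be tested.

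Drap1 encodes a subunit of the transcriptional corepressor NC2, and the 97-base intron is the shorter of the nested pair printed above. It took 0.281 to 2.99 reads per 1000 gene reads in the 9 AKR/J libraries with a median of 2.20, 4.06 to 10.6 in C57BL/6J with a median of 7.32, and 5.49 to 12.2 in Cav1-null with a median of 8.19. Every AKR/J library was below every library of the other strains. The log2 fold change of AKR/J over C57BL/6J was -1.94 (SE 0.32, adjusted p = 0.00076), and it was called without each of the 18 libraries. The counts are small, with 1 to 15 reads per library in AKR/J and 10 to 33 in C57BL/6J.

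Set against the reads that use the shared donor, the same difference was seen. In AKR/J 0.145% to 1.47% of the reads on the 97-base and 118-base junctions were on the 97-base one (median 1.14%), in the 8 C57BL/6J libraries with reads on both 1.88% to 4.84% (median 3.52%), and in Cav1-null 2.54% to 6.04% (median 3.80%). The acceptors are 21 bases apart, a multiple of 3.

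The 88-base intron of Rccd1, a gene with an RCC1 domain, was higher in AKR/J. It took 23.5 to 63.5 reads per 1000 gene reads in AKR/J (median 33.15), 8.07 to 22.03 in C57BL/6J (median 12.7) and 2.20 to 20.7 in Cav1-null (median 11.8). The AKR/J libraries lay above all others, and C57BL/6J and Cav1-null overlapped. The log2 fold change was 1.60 (SE 0.23, adjusted p = 0.00028), and it was called without each of the 18 libraries.

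The intron of Snhg14 differed between strains on top of its change with day. It took 7.80 to 31.1 per 1000 gene reads in AKR/J (median 13.85), 1.35 to 26.3 in C57BL/6J (median 4.17) and 3.27 to 11.7 in Cav1-null (median 3.93). Over the 3 days AKR/J was above C57BL/6J by 1.46 (SE 0.21, adjusted p = 0.00021), and the d12 libraries of C57BL/6J overlapped with AKR/J. The donor of Snhg14 is also joined to an acceptor that makes an intron of 346 bases. The 97-base intron took 93.2% to 98.8% of the reads of this pair in the 8 AKR/J libraries with both, 60% to 97.3% in C57BL/6J and 66.7% to 90.9% in Cav1-null. In C57BL/6J the share was 91.1% to 97.3% on d12, 78.4% to 81.0% on d15 and 60% to 78.2% on d17, without overlap between the days. In Cav1-null it was 81.9% to 90.9% on d12, 66.7% to 76.9% on d15 and 69.9% to 85.7% on d17, where d17 overlapped both other days. The nearest C57BL/6J values of d15 and d17 were 78.38% and 78.21%. The counts are small, with 2 to 17 reads on the 346-base junction per C57BL/6J library.

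**Figure D4:**
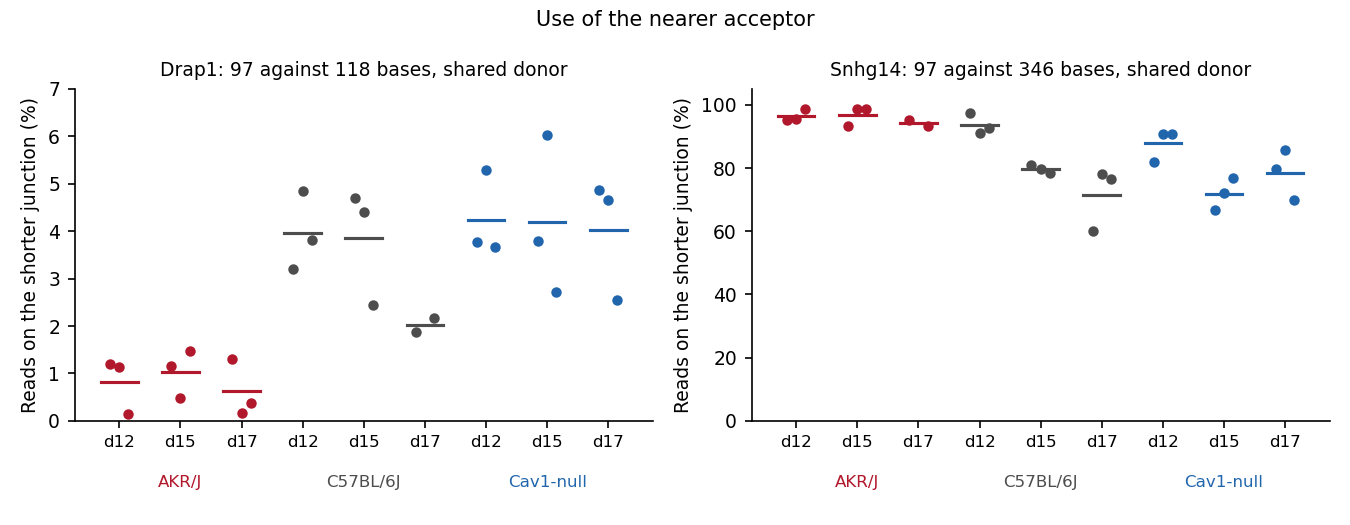
Share of reads on the shorter of 2 junctions that share a donor, in % (y axis), by strain and day (x axis), for Drap1 (97 against 118 bases) and Snhg14 (97 against 346 bases). Points are libraries with reads on both junctions and lines are their means, and the AKR/J libraries are at or below 1.47% in Drap1 and at or above 93.2% in Snhg14.

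In each gene list with calls 2 members were called, and only the one with the largest absolute log2 fold change is described next. The median absolute log2 fold change over the 78 members called between AKR/J and C57BL/6J was 0.40. The 92-base intron of Snrnp200, the helicase of the U5 particle of the spliceosome, took 23.9 to 35.1 per 1000 gene reads in AKR/J (median 30.8) and 21.2 to 29.1 in C57BL/6J (median 23.8), a difference of 0.44 on the log2 scale (SE 0.09, adjusted p = 0.0070). The 79-base intron in the 5' untranslated region of Rps27, a protein of the small ribosomal subunit, took 0.765 to 2.53 in AKR/J (median 1.67) and 2.01 to 4.71 in C57BL/6J (median 2.91), a change of -0.86 (SE 0.16, adjusted p = 0.0021). A 308-base junction that shares a site with it was 0 in nearly all libraries and had 4108 reads in 1 of C57BL/6J and up to 6409 in Cav1-null, where the Rps27 member took 0.430% to 0.653% of the reads of the pair.

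The 76-base intron of Sptan1, the alpha chain of brain spectrin, took 20.7 to 34.0 in AKR/J (median 22.6) and 19.9 to 23.7 in C57BL/6J (median 22.1), and its change of 0.33 (adjusted p = 0.032) was accompanied by values of 33.6 and 34.0 in 2 libraries of AKR/J d12. The 81-base intron of Psmc6, an ATPase of the proteasome, took 68.9 to 86.8 in AKR/J (median 80.5) and 70.8 to 80.6 in C57BL/6J (median 73.4), a change of 0.23 (adjusted p = 0.014). The groups overlapped in Snrnp200, Rps27, Sptan1 and Psmc6. The call of Sptan1 was lost without any of 8 libraries, and those of the other 3 were kept without each of the 18. With zeros kept, Snrnp200 and Rps27 were called (adjusted p = 0.043 and 0.013) and Sptan1 and Psmc6 were not (0.21 and 0.23). Against the other junctions of the gene Snrnp200 turned to -0.08 (adjusted p = 0.90), Sptan1 and Psmc6 were not called (0.59 and 0.28), and Rps27 could not be tested. With TMM scaling the direction turned in 3 of the 4, to -0.44 in Snrnp200, -0.40 in Sptan1 and 1.29 in Rps27, all of them called. Uqcrq, described above, was also higher in AKR/J (log2 fold change 0.93, adjusted p = 0.0026), and was not called with zeros kept (adjusted p = 0.063) or against its other junctions (adjusted p = 0.064).

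The lists were described by counts over all 9 comparisons, with no test of a list. Over these comparisons 1.55% of the tests of all junctions were called, from 0.0786% to 6.92% in single comparisons. The 86 splicing factor genes held 24 members, 4.08% of their junctions, with 2 calls in 90 tests. The 79 genes of cytosolic ribosomal proteins held 15 members (8.20% of their junctions), with 3 calls in 36 tests. The 58 genes of the proteasome and ubiquitin ligases held 27 members (7.96%) with 2 calls in 156 tests, and the 68 genes of the cytoskeleton and motors 11 members (3.22%) with 2 calls in 71 tests.

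Genes of neuronal function were looked at the same way. The 67 synapse genes held 7 members, 2.10% of their 334 junctions, and the 45 voltage-gated channel genes held 2, or 0.866% of 231, compared with 4.41% over all junctions. The 59 axon guidance genes held 8 members (3.51%) and the 38 collagens 4 (2.72%). Chromatin regulators (74 genes) held 30 members (5.74%) and the 59 genes of DNA replication and mitosis 18 (6.98%). With the edgeR test no member was called in these 6 lists in any comparison, with 45, 1, 47, 18, 188 and 130 tests in the order given, of which 5, 0, 4, 0, 10 and 9 had an unadjusted p under 0.05. Over the same 9 comparisons 1.55% of the tests of all junctions were called.

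In the Cav1-null comparison the members without overlap between strains came down to 1, an 86-base intron of Nckap5l listed under Nckap5los. Its log2 fold change was -1.43 against Nckap5los and -0.08 against Nckap5l, and against the other junctions listed under Nckap5los it turned to 0.12 (adjusted p = 0.78). The introns of Evi5l and Mast1, listed under 4932443L11Rik and Dnase2a, were called in both strain comparisons against the listed gene and had changes of at most 0.06 in AKR/J and of 0.0009 and -0.14 in Cav1-null against their own. The 98-base intron of Rc3h2, an RNA-binding regulator of mRNA decay, was higher than in C57BL/6J by 0.34 in AKR/J (adjusted p = 0.036) and by 0.32 in Cav1-null (adjusted p = 0.033), calls that were lost without any of 11 and 10 of the 18 libraries and with zeros kept (adjusted p = 0.107 and 0.125).

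A second measure set each junction against the other junctions of its gene. With it 1, 1, 0, 0, 0 and 0 members were called in the day comparisons, 5 between AKR/J and C57BL/6J, 1 between Cav1-null and C57BL/6J, and 0 in the interaction, with 68 to 144 members at an unadjusted p under 0.05 in the day and strain comparisons. Of all junctions tested this way, 0.0554%, 0.0344%, 0.0125%, 0.00838%, 0.00863% and 0% were called in the day comparisons, 0.581% and 0.134% in the strain comparisons and 0.0306% in the interaction. Drap1 (log2 fold change -1.97, adjusted p = 0.014), Rccd1 (1.61, adjusted p = 0.0030), Snhg14 (0.99, adjusted p = 0.0029) and Rc3h2 (0.57, adjusted p = 0.043) were called between AKR/J and C57BL/6J by both measures. Caskin1 was the fifth, at -1.23 (adjusted p = 0.0032), and its change against the reads of the gene was 0.003 (adjusted p = 0.99). The reads of the other junctions were summed, so a 0 that stands for removed reads lowers the sum. Whether this entered these calls was not tested.

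Ddx5 and Ntn3 were called by this second measure and not against the reads of the gene. The 82-base intron of the RNA helicase gene Ddx5 rose by 3.32 in the AKR/J early phase and fell by 3.52 in the late phase against the other junctions of Ddx5, with 712.0 to 766.0 reads per 1000 reads of those 6 junctions on d12, 7465.6 to 7819.2 on d15 and 611.8 to 687.9 on d17. Per 1000 gene reads, the Ddx5 intron took 33.7 to 35.8 on d12, 37.3 to 38.5 on d15 and 32.3 to 38.3 on d17. The reads of the other junctions relative to the gene were thus lower on d15, and whether reads had been removed there was not tested. Ntn3, a netrin, was lower in Cav1-null by 1.99 (log2 fold change -1.99, adjusted p = 0.044) against its 1 other tested junction and by 0.66 (log2 fold change -0.66, adjusted p = 0.25) against the reads of the gene. These junctions were named after their values were seen.

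Short introns often shared a splice site with another junction. This held for 400 members (16.3%), of which 237 shared a donor and 177 an acceptor. In 92 annotated pairs the differing ends were at most 30 bases apart, and in 43 of these the distance was a multiple of 3, which keeps the reading frame. Pairs that share the donor made up 63 of the 92, with 14 of them at 3 bases, and pairs that share the acceptor 29, with 1 at 3 bases. The median share of reads on the member was 68.1%, with over 90% for 121 members and under 10% for 104.

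Some members had reads throughout a strain and none in another. With at least 10 reads in every library of AKR/J and 0 in every Cav1-null library there were 4 members, against 0.0287% of all junctions. With at least 10 in every C57BL/6J library and 0 in AKR/J there was 1 member, Stat2, against 0.0126%, and with at least 10 in every Cav1-null library and 0 in AKR/J there were 6, against 0.0754%. Since a 0 may stand for removed reads, the values of the C57BL/6J libraries are given with each below.

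The 72-base intron of Ppdpf, printed above, had 210 to 480 reads in the Cav1-null libraries and 0 in all AKR/J libraries. In C57BL/6J it had 233 to 479 reads in 6 libraries and 0 in 3, and per 1000 gene reads 104.6 to 135.2 where it was not 0. A 267-base junction that shares a site with it had 1 to 34 reads in AKR/J, 0 to 14 in C57BL/6J and 0 to 5 in Cav1-null. Both strains with reads on the short intron were thus high where detected, and single C57BL/6J libraries at 0 stood beside libraries of the same group with at least 233 reads.

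The introns of Galt (90 bases), the galactose-1-phosphate uridylyltransferase, and Noc4l (91 bases) were at 0 in AKR/J, and each was at 0 in 1 C57BL/6J library. Galt had 32 to 91 reads in Cav1-null and 34 to 72 in the 8 C57BL/6J libraries with reads. Noc4l had 20 to 64 and 34 to 121. The 75-base intron of Stat2, a transcription factor of interferon signalling, had 10 to 34 reads in Cav1-null, 20 to 43 in all 9 C57BL/6J libraries and 0 in AKR/J, so here no library of the other strains was at 0. Zfp511 (85 bases) had 7 to 24 reads in Cav1-null, 7 to 21 in C57BL/6J and 0 in AKR/J.

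Tbl3 (100 bases), a protein of the small ribosomal subunit processome, had 14 to 53 reads in Cav1-null and reads in only 3 C57BL/6J libraries. The junction of Agrn (99 bases) is not annotated, has GT-AG ends, and took 15 to 33 reads in Cav1-null and 8 to 47 in the 7 C57BL/6J libraries with reads, which is at most 1.93 per 1000 reads of Agrn. In the other direction, the 87-base intron of Cdc16, a subunit of the anaphase-promoting complex, had 95 to 243 reads in AKR/J, 0 in Cav1-null, and 226 in 1 C57BL/6J library (d17 replicate 2) with 0 in the other 8.

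**Figure D5:**
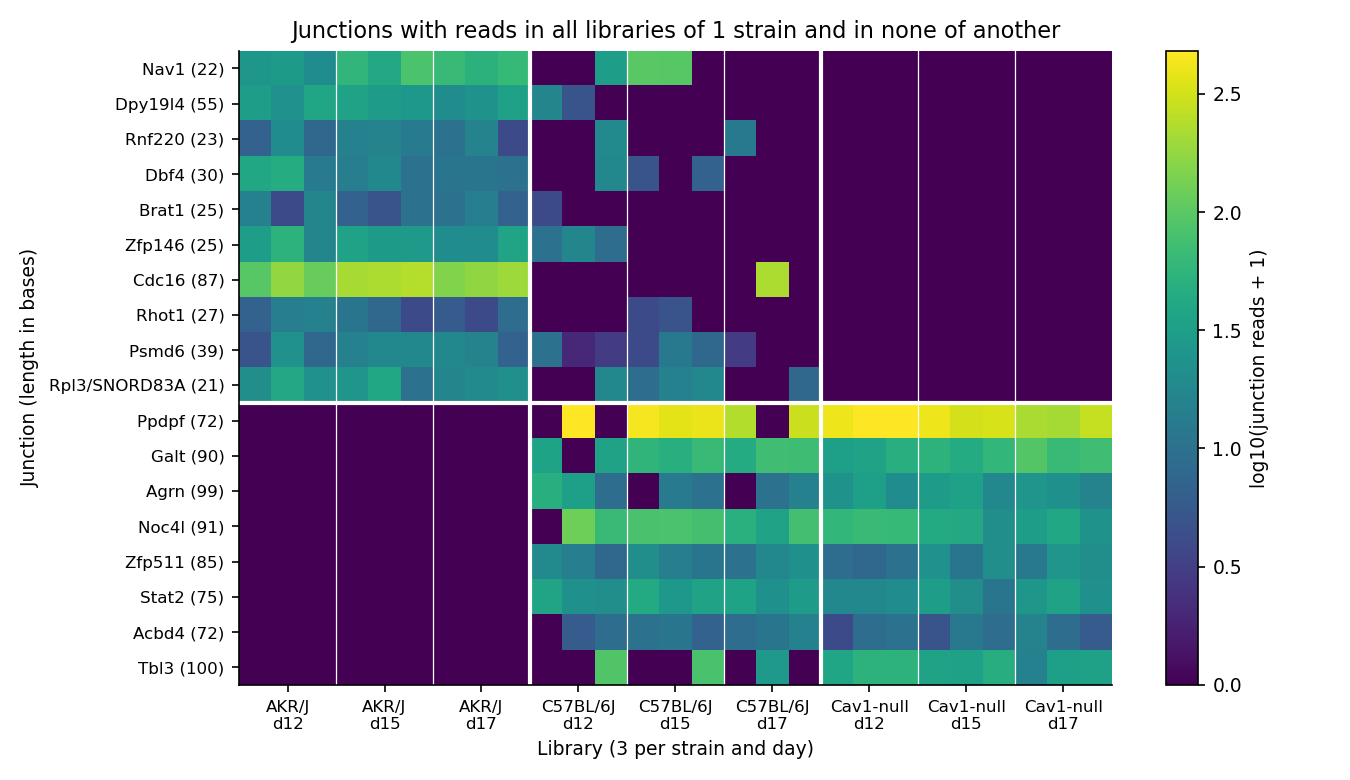
Colour gives log10(junction reads + 1) for the 18 junctions with reads in all libraries of AKR/J or Cav1-null and 0 in all of the other (y axis, length in bases in brackets) in each of the 27 libraries (x axis). The upper 10, of which 9 are under 60 bases, have reads in 1 to 7 of the 9 C57BL/6J libraries, and each C57BL/6J library has reads on 4 to 8 of the lower 8.

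Without the minimum of 10 reads, 10 members had reads in all 9 AKR/J libraries and 0 in all Cav1-null libraries, against 0.106% of all junctions, and 9 of them are not annotated. In reverse there were 8, against 0.232%, of which 1 is not annotated. All 18 had reads in at least 1 C57BL/6J library, and Zfp511 and Stat2 had them in all 9. C57BL/6J d12 libraries had 3 to 6 of the 10 and those of d17 1 or 2.

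The members that are not annotated numbered 145, and they differed from annotated short introns in length and ends. Of these, 72 were under 50 bases, 124 lay inside an annotated exon, 54 had splice site ends on the listed strand and 21 on the opposite strand, and 70 had other ends. For 70 of them, the skipped segment could be shifted by at least 4 bases without changing the joined sequence. Of the 145, 66 had reads in AKR/J and 0 in all Cav1-null libraries, with a median length of 29 bases, and 57 of these were under 50 bases. Each AKR/J library had reads on 34 to 45 of the 66 and each C57BL/6J library on 13 to 26. The reverse pattern held for 7. Of unannotated junctions of every length, 12.6% had reads in AKR/J and none in Cav1-null and 2.55% the reverse. Among the 2309 annotated members 15 had reads in AKR/J alone of these 2 strains and 21 in Cav1-null alone, and over all annotated junctions the shares were 1.19% and 0.932%.

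Printed here are 3 of these gaps with 20 bases of flank on each side, the skipped segment in capitals, because each had reads in AKR/J or Cav1-null and none in the other. Nav1 and Hjurp have no splice site ends, and Dpy19l4 has the ends CT-AC, which read GT-AG on the opposite strand. They lie in Nav1 (chr1:135369369-135369430, minus strand), Hjurp (chr1:88193981-88194071, minus strand) and Dpy19l4 (chr4:11262875-11262969, minus strand).
Nav1: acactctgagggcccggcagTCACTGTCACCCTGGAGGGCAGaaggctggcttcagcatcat
Hjurp: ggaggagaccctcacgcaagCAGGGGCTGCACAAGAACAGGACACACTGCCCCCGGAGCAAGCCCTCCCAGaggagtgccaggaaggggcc
Dpy19l4: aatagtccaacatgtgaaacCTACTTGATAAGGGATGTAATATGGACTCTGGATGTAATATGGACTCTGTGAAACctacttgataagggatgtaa

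The 22-base gap of Nav1, a neuronal navigator gene, had 19 to 82 reads in AKR/J, 30 to 99 in 3 C57BL/6J libraries and 0 in the other 15 libraries. Its ends read TC-AG, and the segment can be shifted by 5 bases. The 55-base gap of Dpy19l4 can be shifted by 39 bases. It had 19 to 37 reads in AKR/J, 16 and 4 in 2 C57BL/6J libraries of d12 and 0 in the other libraries. A 25-base unannotated gap of Zfp146 had 16 to 53 reads in AKR/J, 8 to 16 in C57BL/6J d12 and 0 in the other libraries. The 51-base gap of Hjurp, the chaperone of the centromeric histone CENP-A, had 0 reads in AKR/J, 84 to 207 in 4 C57BL/6J libraries and 157 to 207 in 7 Cav1-null libraries, where it took 22.8 to 29.3 per 1000 gene reads.

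The remaining unannotated members of high read counts were of several kinds. A 23-base gap in Erdr1 had reads in 10 libraries, up to 515, and a 21-base gap listed under Ccnb1ip1 and Rpph1 had reads in 12 libraries, none of them Cav1-null. A 32-base gap in Rnmt had 40 to 73 reads in AKR/J and 1 read in all Cav1-null libraries together. A gap of 1 base in Sox1ot had reads in 26 libraries. The 81-base junction of Gm42047 and the 78-base junction of Sdf2 have GT-AG ends, and Sdf2 had 3 to 30 reads in all 27 libraries, at 3.11 to 20.1 per 1000 gene reads, with no strain at 0.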

How the data were processed

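The members, gene lists and alternatives were chosen with earlier results of these data known. The authors trimmed reads with cutadapt and fastp, aligned them to GRCm39 with STAR in multi-sample 2-pass mode (Ensembl annotation), removed junctions with multimapped reads, short overhangs or few reads, and deposited raw read counts per junction and per gene. A 0 may therefore stand for removed reads. The tool and strand handling behind the gene counts are not given in the sources used here. Here, each distinct junction was taken once and annotated with GENCODE vM39 on GRCm39, which also gave the sequences. Mature microRNAs came from RefSeq (table build GRCm38.p6) and were matched by sequence.

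Junction counts were fitted with edgeR 4.0.16 (quasi-likelihood, R 4.3.3) over all junctions with the log of the gene's reads as offset, plus a constant that equalised the median junction-to-gene ratio of each library. Tested junctions had 1 listed gene, reads in every library compared and a mean of at least 10. P-values were adjusted by Benjamini-Hochberg over all tested junctions and called under 0.05. Standard errors are the log2 fold change over the root of F. Strain comparisons fitted strain and day. Alternatives were DESeq2 1.42.0, limma 3.58.1, other scalings, filters and denominators, fits without 1 library at a time, and a block for the replicate number. The labels do not say whether replicates came from separate litters, so p-values measure only the spread between these samples. The fit was tested on simulated data.

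Genes were named by rule: the 8 members with the highest means, the 5 shortest with reads in every library, the 3 largest rises and falls without overlap in each comparison, the 8 unannotated members with the highest means, the 8 highest with at least 10 reads throughout a strain and 0 in another, the 5 hosts with the most members, and the largest call of each list. Other names were chosen after their values were seen.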

Additional observations from a re-analysis of the deposited data

Results flagged for a closer look

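The test of the interaction of strain and day, by edgeR with adjustment over all tested junctions, singled out 10 short introns whose change between days differed between strains. The adjusted p was 0.008471 for Nop56, 0.009585 for Hif1a, 0.01117 for Qars and for Uckl1, 0.0202 for 4932443L11Rik and for Xrcc1, 0.02239 for Pdhb, 0.02794 for Ergic3 and for Gtf3c6, and 0.02923 for Tinf2. Against the reads of the gene that GENCODE gives the intron, those listed under 4932443L11Rik and Tinf2 had adjusted p of 0.558 and 0.485 and were no longer called, and the other 8 were. With zeros kept in the fit Xrcc1 kept its call (adjusted p = 0.044) and the other 9 lost theirs, Nop56 at 0.149 and Hif1a at 0.182 among them. Against the other junctions of the gene none of the 9 that could be tested was called, with Nop56 at 0.831 and Hif1a at 0.508. Against the reads of the gene, Nop56 and Hif1a were called without each of the 27 libraries. The call was lost without 1 library for Qars and 4932443L11Rik, 2 for Uckl1, 3 for Gtf3c6, 4 for Pdhb and Xrcc1, 5 for Ergic3 and 8 for Tinf2. For Qars, Uckl1, Gtf3c6, Pdhb, Xrcc1, Ergic3 and Tinf2 these include AKR/J d12 replicate 1. The erythroid markers were raised and the neuron markers lowered in AKR/J d12, and other marker lists differed there too. Their part in these differences was not tested.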

How the results depend on the processing

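Counts of called members are given for the early and late phase of each strain (AKR/J, then C57BL/6J, then Cav1-null), then AKR/J and Cav1-null against C57BL/6J, then the interaction, and they were 24, 2, 0, 4, 6, 2, 78, 41 and 10. With DESeq2 they were 24, 3, 6, 16, 7, 6, 99, 73 and 17, and with limma 18, 1, 0, 3, 6, 2, 95, 50 and 12. With TMM scaling of libraries and no gene offset, a setting that also counts changes of the gene itself, they were 240, 191, 152, 84, 193, 129, 515, 555 and 72. Without centring they were 13, 3, 0, 2, 7, 2, 87, 79 and 9. With a mean of at least 50 reads they were 17, 1, 0, 1, 5, 2, 58, 33 and 10, and with no minimum 24, 3, 1, 6, 7, 2, 80, 43 and 11. With zeros kept they were 2, 1, 1, 1, 4, 0, 28, 2 and 1. Against the other junctions of the gene they were 1, 1, 0, 0, 0, 0, 5, 1 and 0. Against the GENCODE gene they were 42, 7, 6, 5, 8, 1, 77, 44 and 21, and with junctions of at most as many reads as their gene 47, 10, 13, 14, 16, 6, 90, 52 and 21, settings added after the data were seen. Without 1 library at a time the counts ran from 2 to 69, 1 to 3, 0 to 5, 0 to 16, 0 to 6, 1 to 4, 47 to 119, 27 to 84 and 3 to 29. For these changes the cause was not tested.

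Same-numbered libraries correlated at -0.057 to 0.096, which showed no pairing by replicate number. Libraries of different numbers were not set beside them, so pairing is not excluded. With the replicate block the counts were 18, 3, 0, 10, 4, 4, 65, 37 and 10. Scaling moved the balance of directions. With TMM scaling, calls higher and lower were 80 and 111 in the AKR/J late phase, 71 and 122 in the Cav1-null early phase, and 228 and 287 between AKR/J and C57BL/6J. Without centring the Cav1-null early phase had 1 and 6.

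Single changes turned direction as follows, in log2. With TMM scaling these were Nop56 in the AKR/J early phase (-0.17), 4932443L11Rik in the C57BL/6J late phase (0.0151), Tmem191c in the Cav1-null early phase (0.0726), and Snrnp200 (-0.44), Sptan1 (-0.40) and Rps27 (1.29) between AKR/J and C57BL/6J. Against the GENCODE gene these were Dnase2a in the AKR/J early phase (-0.20), Gm20721 (0.0944) and Gm20421 (0.23) in the AKR/J late phase, Tmem191c (0.18) and 4932443L11Rik (0.0349) in the C57BL/6J late phase, Plcxd1 of 100 bases in the Cav1-null late phase (0.0779), Nckap5los (0.078), 4932443L11Rik (0.0644) and Dnase2a (0.0120) in AKR/J against C57BL/6J, and 4932443L11Rik (0.000903) in Cav1-null. Against other junctions these were U2af1l4 in the Cav1-null early phase (0.0636), Nckap5los (0.16), Snrnp200 (-0.0807) and Dnase2a (0.000256) in AKR/J against C57BL/6J, and Nckap5los (0.12) in Cav1-null. A junction with a 0 in any library compared was not tested, which leaves out many of the most abundant members.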
